A study of Mus musculus with 19 samples.

Results

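Squalene synthase, squalene epoxidase and lanosterol synthase are the enzymes that commit the mevalonate pathway to sterols, and their 3 genes, Fdft1, Sqle and Lss, were chosen by symbol from the 49315 genes counted. Liver RNA came from 19 female mice of a C57BL/6N background, 1 library per mouse. Gramd1c-/- mice carried a knockout-first allele (tm1a) in every cell, and Gramd1c+/+ littermates came from the same crosses of heterozygous parents, so the study had no liver-restricted deletion. From 8 weeks of age the mice ate a synthetic diet with high (0.2%, wt/wt) or low (0.02%, wt/wt) cholesterol for 4 weeks. There were 5 Gramd1c-/- and 5 Gramd1c+/+ mice on the high cholesterol diet, with 4 Gramd1c-/- and 5 Gramd1c+/+ mice on the low cholesterol diet, and no group ate chow. All 3 genes passed the filter on low counts. The questions were how dietary cholesterol changed these transcripts, and whether loss of Gramd1c, which encodes the sterol transporter Aster-C, altered their level or that change.

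Farnesyl diphosphate stands at a fork in the pathway. Squalene synthase joins a pair of these molecules head to head into squalene and so sends carbon towards cholesterol, while other enzymes use farnesyl diphosphate for protein prenylation, dolichol and ubiquinone. Squalene epoxidase then adds oxygen to squalene and is regarded as a control point of the pathway, and lanosterol synthase folds the epoxide into lanosterol, the first sterol ring system. In liver these genes are known targets of SREBP-2, a transcription factor that is released from the endoplasmic reticulum when membrane sterol is low.

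Library totals ran between 27149972 and 34669648 counts. Gramd1c was measured at 1.07 to 3.61 TPM (counts scaled by gene length and by library, and summing to 1000000 per mouse) in the 9 Gramd1c-/- mice, against 9.56 to 15.99 TPM in the 10 Gramd1c+/+ mice, so no library went against its genotype label. The labels name gonadal adipose tissue in one field and liver in another. The hepatocyte gene for albumin held 5.25 to 9.17% of the counts of a library, and the adipocyte gene for adiponectin at most 177 counts. Of the 19 libraries, 4 stood apart. In Gramd1c+/+ mouse 2 on low cholesterol the 6 adrenal cortex markers summed to 570 TPM and the 5 adipocyte markers to 125 TPM, against at most 3.74 and 4.31 TPM in every other mouse. Gramd1c-/- mouse 5 on high cholesterol lay at 83.1 on the first principal component, against -46.7 to 38.4 for the others. In Gramd1c-/- mouse 3 on high cholesterol the 4 cholangiocyte markers summed to 141 TPM and the 5 exocrine pancreas markers to 79.96 TPM, against at most 8.04 and 50.7 TPM in every other mouse. In Gramd1c-/- mouse 4 on high cholesterol the 4 Kupffer cell markers summed to 717 TPM, against at most 366 TPM elsewhere. The diet changes are also given without the first pair of these libraries, left out together, and without each of the other two. What part the markers have in the results was not tested.

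Fdft1 (ENSMUSG00000021273) lies on the minus strand of GRCm38 chr14:63145153-63177793, and its 8 exons span 2860 bases in the deposited gene model. Of these, 767 exon bases are shared with Ctsb, the gene of a lysosomal protease on the other strand, and a processed pseudogene, Gm6781, matches 1249 bases at 97.4% identity. Sqle (ENSMUSG00000022351) lies on the plus strand at chr15:59315077-59331192, with 11 exons in its messenger RNA model and no near-identical copy. Lss (ENSMUSG00000033105) lies on the plus strand at chr10:76531588-76557138 with 22 exons, and shares 381 exon bases with the antisense gene 4930483K19Rik, which had 0 to 3 counts per mouse. The strand setting of the counting is not given in the sources used here, so reads in the shared bases cannot be assigned to one gene. Ctsb itself averaged 371 ± 110.0 TPM in Gramd1c-/- and 379 ± 56.2 TPM in Gramd1c+/+ mice on high cholesterol (SD, n = 5 each), and 354 ± 36.5 and 390 ± 63.8 TPM on low cholesterol in Gramd1c-/- (n = 4) and Gramd1c+/+ mice (n = 5).

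Of the 3 genes only Lss was matched in the RefSeq promoter sequences (GRCm38.p6). The 233 bases before its annotated start, chr10:76531355-76531587 on the plus strand, are shown because Lss changed with diet together with the other enzymes. Capitals mark the letters searched for on both strands, GGGCGG (bound by Sp1-type factors) and CCAAT (bound by NF-Y), which read CCGCCC and ATTGG where they lie on the minus strand.
Lss: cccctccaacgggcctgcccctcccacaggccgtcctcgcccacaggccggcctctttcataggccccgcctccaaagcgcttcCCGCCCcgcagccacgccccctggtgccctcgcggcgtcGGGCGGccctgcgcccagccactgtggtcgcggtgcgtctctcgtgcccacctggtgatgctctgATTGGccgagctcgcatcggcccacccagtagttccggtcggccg
GGGCGG started 149 and 110 bases before the annotated start, and CCAAT 45 bases before it. Neither TCACNCCAC, a sterol regulatory element spelling, nor CACGTG, an E-box, was found in the 300-base window. Of 27025 genes with a promoter entry, 41.1% held CCAAT, 38.2% held GGGCGG, 8.09% held CACGTG and 1.44% held TCACNCCAC. Among the 16 cholesterol synthesis genes with an entry, 15 held CCAAT and 15 held GGGCGG, while 3 held CACGTG and 1, Hmgcs1, held TCACNCCAC. These matches describe letters in a window and not binding.

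High dietary cholesterol lowered all 3 transcripts in both genotypes, Sqle far more than Fdft1 and Lss. Of 15016 genes tested, 0.293% were called lower on high cholesterol in Gramd1c-/- mice and 0.34% in Gramd1c+/+ mice, and the 3 genes were called in both. Genes called higher made up 0.0333% in Gramd1c-/- and 0.0999% in Gramd1c+/+ mice. For these 3 genes, no mouse on high cholesterol reached the level of any mouse of its genotype on low cholesterol. The share of all genes tested that were separated in this way is not given here, so the separation is a description only. Genotype had no detectable effect on any of them on either diet. A call here is a Benjamini-Hochberg adjusted p below 0.05 in edgeR's quasi-likelihood test of the counts over all 15016 genes.

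**Figure D1:**
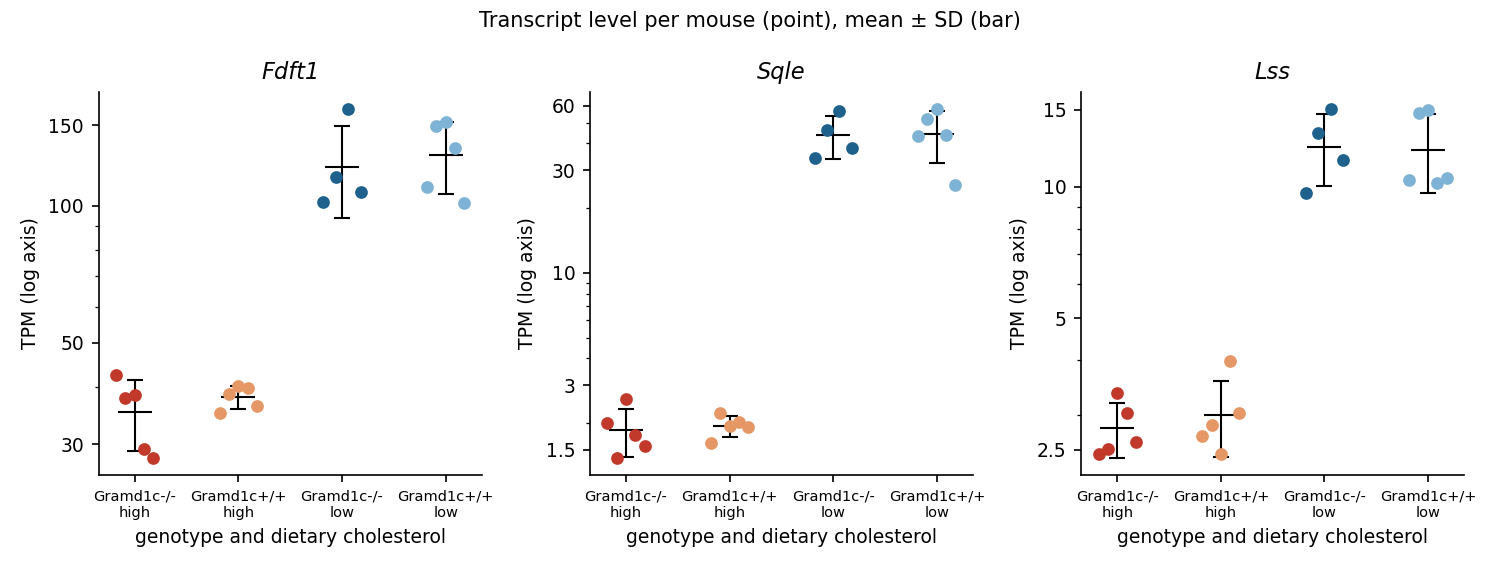
TPM of Fdft1, Sqle and Lss on log axes, with 1 point per mouse and bars for the mean and SD of each genotype and diet group (n = 5, 5, 4 and 5). The high cholesterol groups lie below the low cholesterol groups with no overlap, by the widest gap for Sqle (1.38 to 2.58 TPM on high against 25.5 to 57.6 TPM on low cholesterol), while the genotypes overlap on each diet.

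Fdft1, which encodes squalene synthase, was the most abundant of the 3 transcripts per unit length. In Gramd1c-/- mice it was measured at 42.5, 37.9, 38.5, 29.3 and 28.04 TPM on high cholesterol, against 102, 116, 163 and 107 TPM on low cholesterol. In Gramd1c+/+ mice it was measured at 35.2, 38.7, 40.2, 39.9 and 36.3 TPM on high cholesterol, against 110, 149, 153, 134 and 101 TPM on low cholesterol. The diets were separated in both genotypes, the lowest mouse on low cholesterol being 2.40 times the highest on high cholesterol in Gramd1c-/- mice and 2.51 times in Gramd1c+/+ mice. Means were 35.2 ± 6.26 TPM in Gramd1c-/- and 38.1 ± 2.23 TPM in Gramd1c+/+ mice on high cholesterol, and 122 ± 27.7 and 129 ± 23.2 TPM in Gramd1c-/- and Gramd1c+/+ mice on low cholesterol (SD). Fdft1 fell by 1.81 on the log2 scale in Gramd1c-/- mice (SE 0.18, edgeR adjusted p = 2.33e-06) and fell by 1.71 in Gramd1c+/+ mice (SE 0.17, adjusted p = 3.56e-06). Of the 3 genes it had the smallest estimated change, and within Gramd1c+/+ mice on high cholesterol it was also the steadiest value, with a coefficient of variation of 5.86%, against 17.8% in Gramd1c-/- mice on that diet. The wider spread of the Gramd1c-/- mice came from mice 4 and 5, at 29.3 and 28.04 TPM, both of which are among the libraries that stood apart. Without Gramd1c+/+ mouse 2 on low and Gramd1c-/- mouse 5 on high cholesterol, the log2 changes were -1.76 and -1.70 in Gramd1c-/- and Gramd1c+/+ mice. The change in Gramd1c-/- mice was -1.77 without mouse 3 and -1.73 without mouse 4 on high cholesterol.

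The overlapping Ctsb did not move with Fdft1, its log2 fold change on high against low cholesterol being 0.026 in Gramd1c-/- and -0.013 in Gramd1c+/+ mice. What part reads in the exon bases shared with Ctsb have in the levels, changes and ratios of Fdft1 was not tested. The pseudogene copy Gm6781 had 0 to 4 counts in Gramd1c-/- and 3 to 9 counts in Gramd1c+/+ mice on high cholesterol, and 8 to 28 and 8 to 21 counts in Gramd1c-/- and Gramd1c+/+ mice on low cholesterol. Fdft1 had 1110 to 1730 counts on high and 3910 to 5945 counts on low cholesterol, so counts at the copy were few beside its own, and reads shared between both cannot be told apart.

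Sqle, which encodes squalene epoxidase, showed the largest diet change of the 3 genes. In Gramd1c-/- mice its level was 1.99, 1.38, 2.58, 1.76 and 1.56 TPM on high cholesterol, against 34.1, 46.0, 56.8 and 38.2 TPM on low cholesterol. In Gramd1c+/+ mice it was 1.62, 2.22, 1.93, 2.03 and 1.92 TPM on high cholesterol, against 43.4, 51.8, 57.6, 43.9 and 25.5 TPM on low cholesterol. Every mouse on high cholesterol was thus close to the bottom of the measured range, and the lowest mouse on low cholesterol still stood 13.2 times (Gramd1c-/-) and 11.5 times (Gramd1c+/+) above the highest mouse on high cholesterol. Means were 1.86 ± 0.464 TPM in Gramd1c-/- and 1.94 ± 0.218 TPM in Gramd1c+/+ mice on high cholesterol, and 43.8 ± 9.98 and 44.4 ± 12.1 TPM in Gramd1c-/- and Gramd1c+/+ mice on low cholesterol (SD). The log2 fold change was -4.60 in Gramd1c-/- mice (SE 0.23, edgeR adjusted p = 5.07e-11) and -4.46 in Gramd1c+/+ mice (SE 0.22, adjusted p = 7.63e-11). Ranked by p, Sqle was number 2 of 15016 genes in both genotypes, and ranked from the lowest log2 fold change it was number 2 in Gramd1c-/- and number 4 in Gramd1c+/+ mice. Its low level was still well counted, with 109 to 193 counts per mouse on high cholesterol, which sets a counting error of at most 9.58% of the value, against 2070 to 4301 counts on low cholesterol. Without Gramd1c+/+ mouse 2 on low and Gramd1c-/- mouse 5 on high cholesterol, the log2 changes were -4.57 in Gramd1c-/- and -4.45 in Gramd1c+/+ mice. The change in Gramd1c-/- mice was -4.66 without mouse 3, the highest Sqle value on high cholesterol, and -4.56 without mouse 4. The lowest value on low cholesterol, 25.5 TPM, belonged to Gramd1c+/+ mouse 5, which was also lowest in that group for Fdft1.

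Lss, which encodes lanosterol synthase, fell about as much as Fdft1. In Gramd1c-/- mice it was measured at 2.45, 2.51, 3.37, 3.04 and 2.61 TPM on high cholesterol, against 9.66, 13.2, 15.03 and 11.5 TPM on low cholesterol. In Gramd1c+/+ mice it was measured at 2.69, 2.85, 2.44, 3.98 and 3.03 TPM on high cholesterol, against 10.3, 14.7, 15.005, 10.2 and 10.46 TPM on low cholesterol. The diets were again separated, by 2.86 times in Gramd1c-/- and 2.56 times in Gramd1c+/+ mice between the nearest mice. Means were 2.79 ± 0.397 TPM in Gramd1c-/- and 2.997 ± 0.591 TPM in Gramd1c+/+ mice on high cholesterol, and 12.4 ± 2.30 and 12.1 ± 2.49 TPM in Gramd1c-/- and Gramd1c+/+ mice on low cholesterol (SD). Lss fell by 2.18 on the log2 scale in Gramd1c-/- mice (SE 0.14, edgeR adjusted p = 4.79e-09) and fell by 1.99 in Gramd1c+/+ mice (SE 0.14, adjusted p = 1.23e-08). By p it was number 5 of the genes tested in both genotypes, ahead of Fdft1 at number 16 in Gramd1c-/- and number 14 in Gramd1c+/+ mice. The biological coefficient of variation that edgeR fitted over all groups was 15.7% for Lss, 19.2% for Fdft1 and 21.8% for Sqle, but within Gramd1c+/+ mice on high cholesterol Lss had the widest spread of TPM of the 3, at 19.7%. Without Gramd1c+/+ mouse 2 on low and Gramd1c-/- mouse 5 on high cholesterol, the log2 changes were -2.19 in Gramd1c-/- and -1.96 in Gramd1c+/+ mice. The change in Gramd1c-/- mice was -2.18 without mouse 3, the highest Lss value of its group, and -2.19 without mouse 4 on high cholesterol.

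These libraries are of whole liver, where a smaller number of cells and less RNA per cell cannot be told apart. Summed over 5 hepatocyte markers, the level in Gramd1c-/- mice was 73900 to 95545 TPM on high and 103381 to 120039 TPM on low cholesterol, and in Gramd1c+/+ mice 76717 to 105228 TPM on high and 87840 to 122501 TPM on low cholesterol, with no marker at 0. The hepatocyte sums were thus separated by diet in Gramd1c-/- mice and overlapped in Gramd1c+/+ mice. The part of this in the diet changes was not tested. In Gramd1c+/+ mouse 2 on low cholesterol, the library with adrenal markers, Fdft1, Sqle and Lss lay inside the range of the other mice of the group.

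Loss of Gramd1c did not detectably alter the 3 transcripts. On high cholesterol the log2 fold change of Gramd1c-/- against Gramd1c+/+ mice was -0.19 for Fdft1 (95% interval -0.53 to 0.16), -0.16 for Sqle (-0.58 to 0.26) and -0.17 for Lss (-0.44 to 0.11). On low cholesterol it was -0.083 for Fdft1 (-0.45 to 0.28), -0.021 for Sqle (-0.44 to 0.39) and 0.026 for Lss (-0.26 to 0.31). The per-mouse values of the genotypes overlapped for every gene on both diets. The edgeR test called 0 of the 3 on either diet, where 0.00666% of genes were called lower on each diet, which is Gramd1c itself, and 0% higher. At an unadjusted p below 0.05, 0 of the 3 passed on either diet, and DESeq2 and limma also called 0. A p of this size does not show that the genotypes were equal, and the intervals above give the sizes that these mice leave possible.

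A difference in the diet change between the genotypes was not detected. The interaction, the diet effect in Gramd1c-/- mice minus that in Gramd1c+/+ mice, was -0.10 for Fdft1 (95% interval -0.61 to 0.40), -0.14 for Sqle (-0.73 to 0.45) and -0.19 for Lss (-0.59 to 0.21), with an adjusted p of 0.9999 each in edgeR. None of the 3 had an unadjusted p below 0.05, none was called by DESeq2 or limma, and 0% of genes were called for the interaction in either direction.

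**Figure D2:**
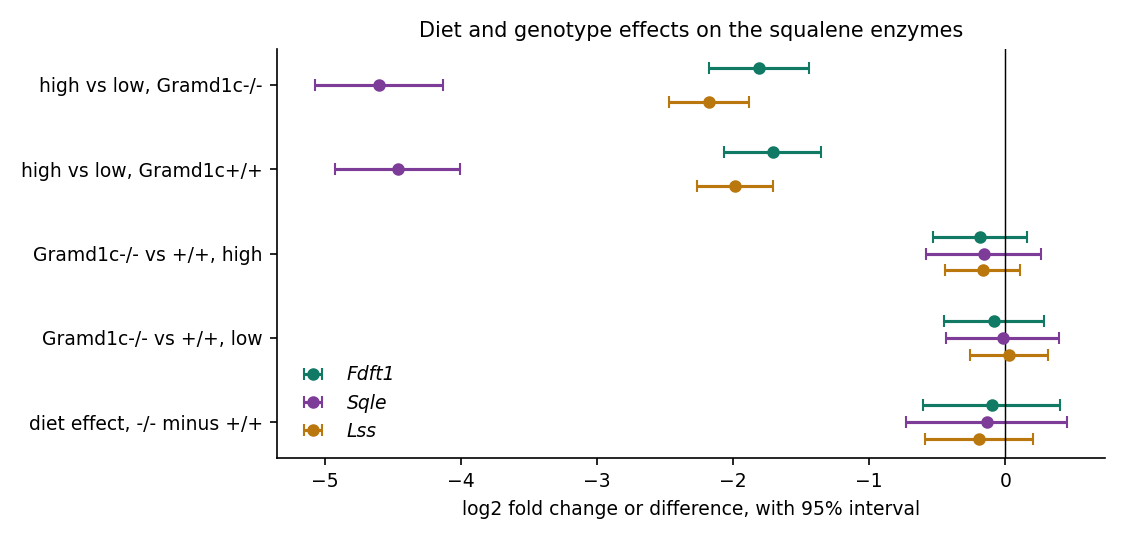
Log2 fold change of each gene in the diet and genotype comparisons, and the difference of the diet effects between genotypes, with 95% intervals from edgeR. Diet intervals lie between -5.07 and -1.35 with Sqle farthest from 0, and every genotype and interaction interval includes 0.

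The balance between the 3 transcripts was taken within each mouse as a log2 ratio of TPM, which cancels the library total. The ratio of Sqle to Fdft1 averaged -4.26 ± 0.34 in Gramd1c-/- and -4.30 ± 0.12 in Gramd1c+/+ mice on high cholesterol, and -1.48 ± 0.11 and -1.57 ± 0.25 in Gramd1c-/- and Gramd1c+/+ mice on low cholesterol (SD). The difference between the diets was -2.78 in Gramd1c-/- and -2.72 in Gramd1c+/+ mice, with no overlap between diets in either (two-sided exact permutation test, p = 0.00794 in each, the smallest these group sizes allow, adjusted p = 0.0272 over 24 ratio tests). Sqle was thus lowered more than Fdft1 in the same livers. Leaving out any 1 Gramd1c-/- mouse kept this ratio at -2.87 to -2.66 but raised the adjusted p to between 0.0612 and 0.0980, because fewer mice raise the smallest p that can be reached.

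The ratio of Sqle to Lss changed sign with diet. It averaged -0.61 ± 0.25 in Gramd1c-/- and -0.61 ± 0.27 in Gramd1c+/+ mice on high cholesterol, so Sqle stood below Lss, and 1.82 ± 0.08 and 1.84 ± 0.33 in Gramd1c-/- and Gramd1c+/+ mice on low cholesterol, where Sqle stood above Lss. The difference between the diets was -2.43 in Gramd1c-/- and -2.46 in Gramd1c+/+ mice (exact permutation p = 0.00794 each, adjusted p = 0.0272). On this scale the order of levels was Fdft1, Sqle, Lss on low cholesterol and Fdft1, Lss, Sqle on high cholesterol, in all mice of each diet. The order depends on gene length, because the deposited lengths of Sqle (5546 bases) and Lss (10787 bases) join all annotated exons, retained introns included, and are 2.01 and 2.31 times that of 1 messenger RNA model. With the model's length, Sqle averaged 3.73 and 3.91 TPM in Gramd1c-/- and Gramd1c+/+ mice on high cholesterol and 88.1 and 89.3 TPM in those on low cholesterol, and Lss 6.46, 6.93, 28.6 and 28.1 TPM in the same groups, which left the order of the group means as it was.

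Lss and Fdft1 overlapped between the diets in their balance. Their log2 ratio averaged -3.65 ± 0.35 in Gramd1c-/- and -3.68 ± 0.26 in Gramd1c+/+ mice on high cholesterol, and -3.30 ± 0.15 and -3.42 ± 0.17 in Gramd1c-/- and Gramd1c+/+ mice on low cholesterol (SD). The difference between the diets, -0.35 in Gramd1c-/- and -0.27 in Gramd1c+/+ mice, did not pass the exact permutation test (p = 0.111 and p = 0.119, adjusted p = 0.286 for both). No ratio of the 3 genes differed between the genotypes on either diet, the smallest adjusted p of these permutation tests being 0.745.

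**Figure D3:**
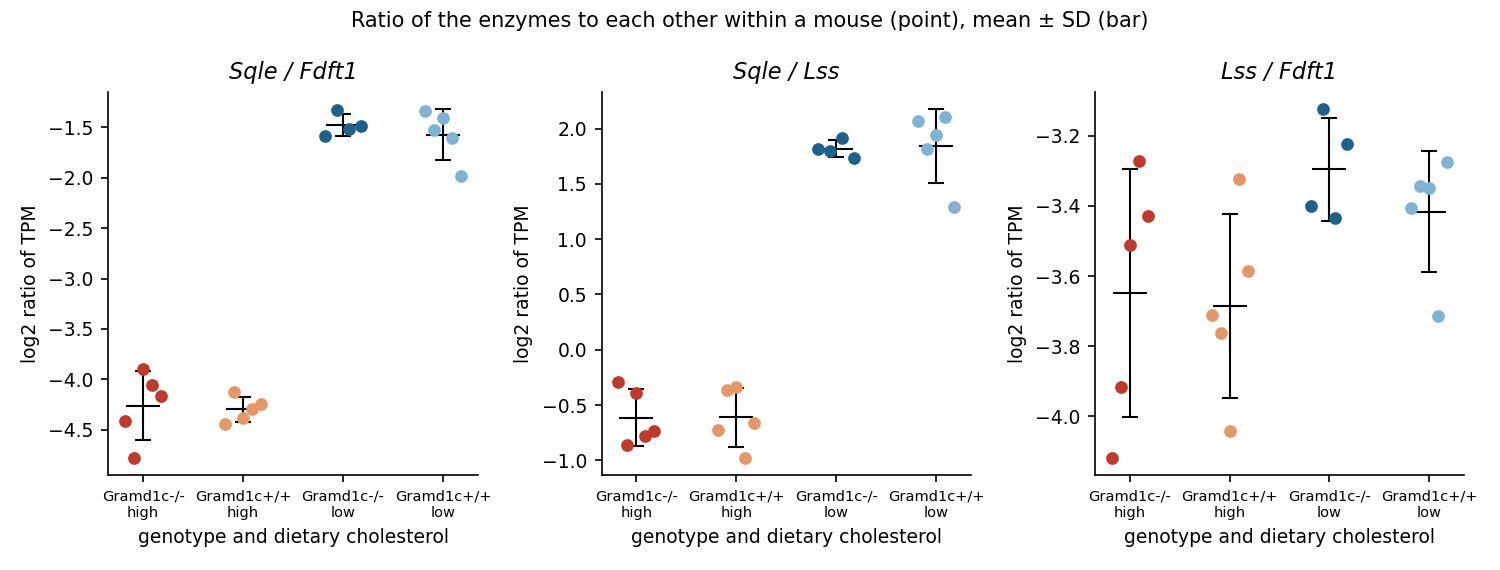
Log2 ratio of TPM within each mouse for Sqle over Fdft1, Sqle over Lss and Lss over Fdft1, by genotype and diet, with the mean and SD. Both ratios with Sqle are separated by diet, from -4.78 to -3.90 on high against -1.99 to -1.33 on low cholesterol for Sqle over Fdft1, whereas Lss over Fdft1 overlaps between the diets.

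The enzymes on either side of the 3 genes moved the same way. Of 18 other enzymes of cholesterol synthesis, 16 were lower on high cholesterol in each genotype and 0 higher, with a median log2 fold change of -2.05 in Gramd1c-/- and -1.83 in Gramd1c+/+ mice, against 0.021 and 0.0068 over all genes tested. All 8 enzymes up to farnesyl diphosphate were lower in both genotypes. Among them Fdps, which makes the substrate of squalene synthase, changed by -3.22 in Gramd1c-/- and -2.99 in Gramd1c+/+ mice. Fdps was measured at 9.03 ± 0.72 TPM in Gramd1c-/- and 11.0 ± 3.17 TPM in Gramd1c+/+ mice on high cholesterol, against 82.9 ± 16.7 and 92.2 ± 14.5 TPM in Gramd1c-/- and Gramd1c+/+ mice on low cholesterol.

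Of the 10 enzymes after lanosterol, 8 were lower in each genotype. Cyp51, the demethylase that acts on the product of lanosterol synthase, changed by -3.41 in Gramd1c-/- and -3.29 in Gramd1c+/+ mice. Ebp, a sterol isomerase, was not called, with log2 fold changes of -0.32 in Gramd1c-/- (edgeR adjusted p = 0.454) and -0.28 in Gramd1c+/+ mice (adjusted p = 0.671). DESeq2 called 17 of the 18 in each genotype and limma 15. Between the genotypes 0 of the 18 were called on either diet by edgeR, DESeq2 or limma, and at an unadjusted p below 0.05 there was 1 on high cholesterol (Msmo1, a sterol methyl oxidase) and 0 on low cholesterol, where 2.42% and 2.66% of all genes passed.

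**Figure D4:**
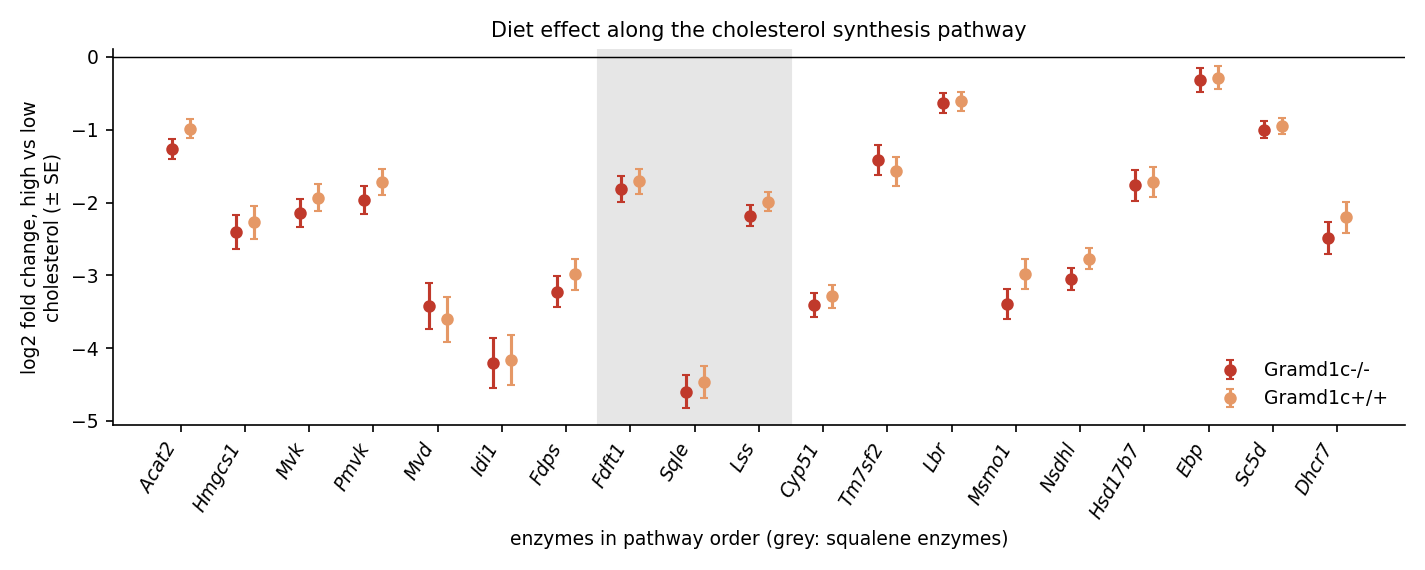
Log2 fold change on high against low cholesterol (with SE) of 19 enzymes in pathway order, for each genotype, with Fdft1, Sqle and Lss on grey. Sqle has the lowest value in both genotypes, followed by Idi1 at -4.21 and -4.16, and Ebp the one nearest to 0.

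Each gene was also set against the mean log2 TPM of the 18 other enzymes in the same mouse. Only Sqle passed the test for diet in both genotypes. Relative to that mean Sqle was lower on high cholesterol, by a difference of -2.41 in Gramd1c-/- and -2.39 in Gramd1c+/+ mice (exact permutation p = 0.00794 each, adjusted p = 0.0272). For Lss the difference was 0.024 in Gramd1c-/- and 0.067 in Gramd1c+/+ mice (exact permutation p = 0.865 and p = 0.516). These values depended on the scale and on the enzymes in the mean, being 0.24 and 0.27 with log2(TPM + 1) (adjusted p = 0.0847 each) and 0.18 and 0.22 with Lbr and Acat2 left out of the mean (adjusted p = 0.381 and 0.212). Fdft1 was relatively higher on high cholesterol, by 0.34 in Gramd1c+/+ mice (exact permutation p = 0.00794, adjusted p = 0.0272), while the 0.38 in Gramd1c-/- mice did not pass (exact permutation p = 0.0556, adjusted p = 0.167). Leaving out 1 Gramd1c+/+ mouse left the Fdft1 difference at 0.31 to 0.37, with an adjusted p of up to 0.0544. Whether this diet difference differs between the genotypes was not tested.

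Genes of the other branches from farnesyl diphosphate were not called. Of 10 listed, mainly for prenylation, dolichol and ubiquinone synthesis, edgeR, DESeq2 and limma each called 0 in either genotype. Over all genes tested, edgeR called 0.293% lower and 0.0333% higher in Gramd1c-/- mice, and 0.34% and 0.0999% in Gramd1c+/+ mice. With calls this rare, 0 of 10 does not set these genes apart from other genes. At an unadjusted p below 0.05 there were 1 in Gramd1c-/- mice (Dhdds) and 2 in Gramd1c+/+ mice (Dhdds and Fntb). Of all genes tested, 11.4% and 7.93% passed that threshold in Gramd1c-/- and Gramd1c+/+ mice. Ggps1, which makes geranylgeranyl diphosphate, changed by 0.13 in Gramd1c-/- and -0.080 in Gramd1c+/+ mice. Dhdds, a subunit of the dolichol-making cis-prenyltransferase, had values of -0.38 and -0.30 (edgeR adjusted p = 0.288 and 0.490), and Fntb, the farnesyltransferase beta subunit, -0.12 and -0.36.

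Nor were 5 genes listed as possible partners or regulators of squalene epoxidase. Por, the reductase that hands it electrons, changed by 0.20 in Gramd1c-/- and 0.17 in Gramd1c+/+ mice, and Sec14l2, known as supernatant protein factor, by -0.096 and -0.13. March6, the ubiquitin ligase that marks squalene epoxidase for degradation, had -0.50 and -0.28. None of the 5 was called in either genotype by edgeR, DESeq2 or limma. Because calls were rare among all genes, this does not set the 5 apart from other genes. At an unadjusted p below 0.05 in edgeR, 2 passed in Gramd1c-/- mice, March6 and Cyb5r3, and 0 in Gramd1c+/+ mice, beside the same shares of all genes.

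Of 10 genes that regulate the pathway or share its regulation, 5 were called lower on high cholesterol in Gramd1c-/- and 4 in Gramd1c+/+ mice. In either genotype 0 were called higher. Over all genes tested, 0.293% were called lower in Gramd1c-/- and 0.34% in Gramd1c+/+ mice. Srebf2, which encodes SREBP-2, changed by -1.27 in Gramd1c-/- and -1.29 in Gramd1c+/+ mice (edgeR adjusted p = 0.00957 and 0.00450). Insig1, which holds SREBP and its escort in the endoplasmic reticulum, changed by -1.27 and -1.28, whereas Insig2 had -0.026 and -0.42 and was not called. Scap, the escort protein, had -0.59 and -0.48 without a call. Stard4, a cytosolic sterol carrier, changed by -1.49 and -1.27. DESeq2 called 5 of the 10 genes in both genotypes. At an unadjusted p below 0.05 in edgeR, 6 passed in Gramd1c-/- and 7 in Gramd1c+/+ mice, beside 11.4% and 7.93% of all genes. Scap was among them in both genotypes. Srebf1 was among them in Gramd1c+/+ mice only, in the upward direction, with a log2 fold change of 0.53 (edgeR adjusted p = 0.499).

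Among mice on the low cholesterol diet the levels of the 3 transcripts were positively correlated. Only Fdft1 with Sqle passed on both Pearson's r and Spearman's rho after adjustment. How often other pairs of genes correlate this strongly over these mice was not tested. Over the 9 mice on low cholesterol, log2 TPM of Fdft1 and Sqle gave a Pearson's r of 0.863 (permutation p = 0.00101, adjusted p = 0.00608 over 6 relations) and a Spearman's rho of 0.967 (permutation p = 1.65e-04, adjusted p = 9.92e-04). Fdft1 and Lss gave r = 0.809 (permutation p = 0.0172, adjusted p = 0.0343) and rho = 0.733 (permutation p = 0.0311, adjusted p = 0.0622). Sqle and Lss gave r = 0.774 (permutation p = 0.0109, adjusted p = 0.0327) and rho = 0.783 (permutation p = 0.0172, adjusted p = 0.0517).

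The 2 mice farthest from the median of the first gene of each pair were then left out. Over the 7 mice left, r was 0.770 for Fdft1 with Sqle and 0.845 for Sqle with Lss (permutation p = 0.0401 and 0.0159). For Fdft1 with Lss it was 0.630 (permutation p = 0.103). That relation thus did not pass without Gramd1c-/- mouse 3 and Gramd1c+/+ mouse 3, with fewer mice in the test. With each genotype group centred on its own mean, r was 0.879, 0.835 and 0.775 for Fdft1 with Sqle, Fdft1 with Lss and Sqle with Lss.

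Over the 10 mice on high cholesterol no relation passed. Pearson's r was 0.458 for Fdft1 with Sqle, 0.039 for Fdft1 with Lss and 0.498 for Sqle with Lss (permutation p = 0.185, 0.920 and 0.145, adjusted p = 0.221, 0.920 and 0.217). Spearman's rho was 0.636, -0.236 and 0.418 in the same order (permutation p = 0.0554, 0.513 and 0.233, adjusted p = 0.0831, 0.513 and 0.280). Left without the 2 farthest mice, r was 0.344, -0.090 and 0.261. Counts were fewer on this diet, and whether the relations differ between the diets was not tested.

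**Figure D5:**
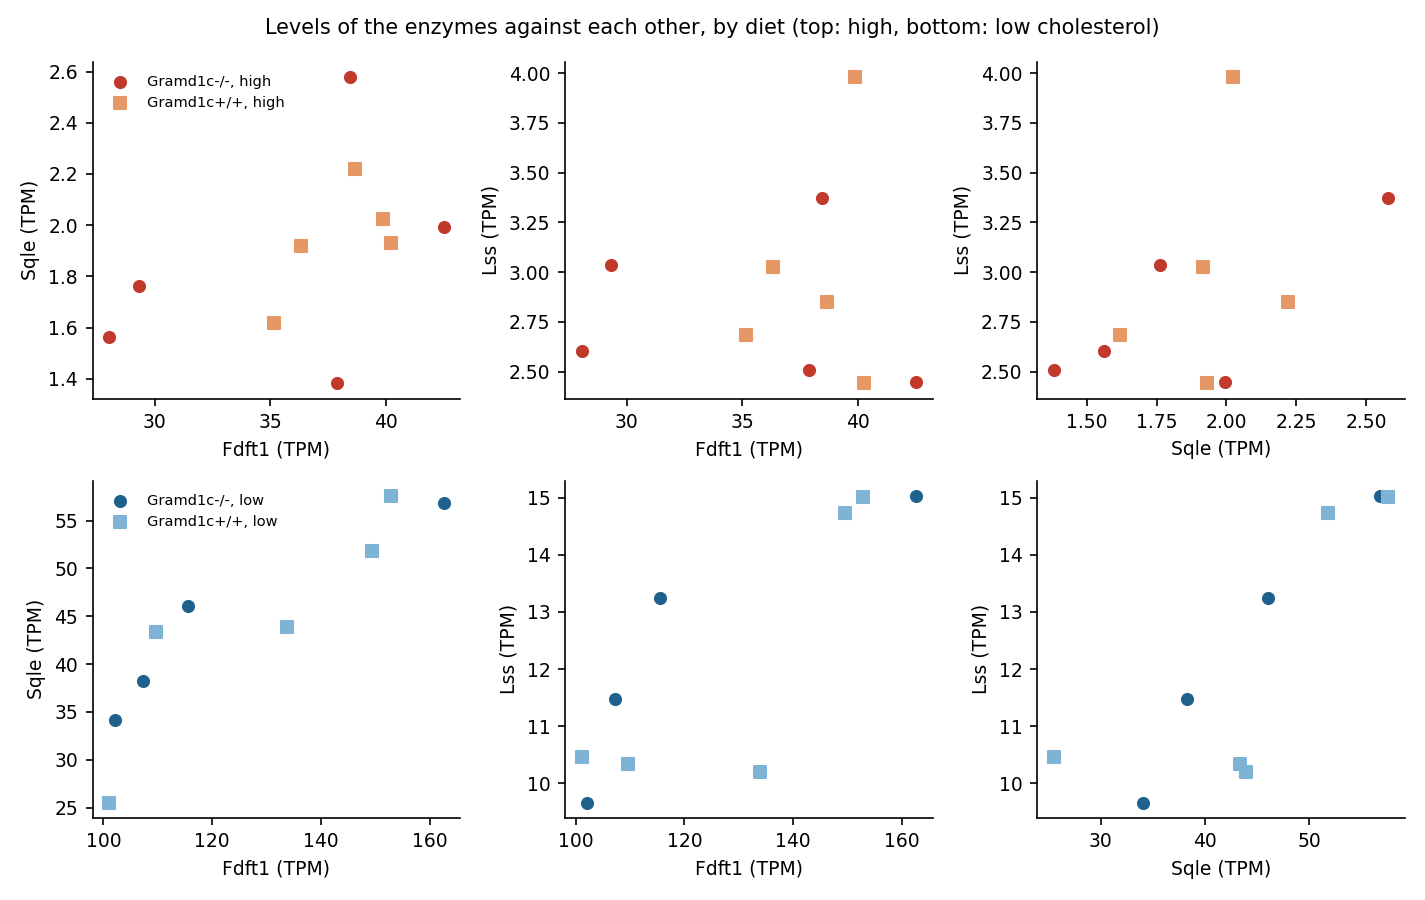
TPM of each pair of genes in single mice, in the top row for the 10 mice on high and in the bottom row for the 9 mice on low cholesterol, with circles for Gramd1c-/- and squares for Gramd1c+/+ mice. On low cholesterol the points of Fdft1 and Sqle line up (r = 0.863 on log2 TPM), and on high cholesterol the points of Fdft1 and Lss do not (r = 0.039).

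The genes with the most similar pattern over all 19 mice were found by the root mean square difference of log2 CPM (counts scaled to the library total, without gene length), each gene centred on its mean, among 15016 genes. For Fdft1 these were Mvk, the mevalonate kinase, at 0.242, Lss at 0.273 and Aldoc, an aldolase of glycolysis, at 0.288. For Lss they were Rdh11, a retinol dehydrogenase, at 0.215, Mvk at 0.263 and Fdft1 at 0.273. For Sqle the nearest were Idi1, the isopentenyl diphosphate isomerase, at 0.566, Cyp51 at 0.604 and Gm13502 at 0.630. Gm13502 is a processed pseudogene with 684 bases at 100% identity to Idi1, so their reads cannot be told apart. Sqle thus had no gene as close to it as Fdft1 and Lss were to each other, and it lay at 1.38 from Fdft1 and 1.23 from Lss. Genes were centred but not scaled, so this distance also grows with a difference in the size of the diet change. Likeness of pattern is a description over mice that share diets.

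Genes beside them on the chromosome were not called. Within 100 kb of the 3 genes 11 other genes were tested, and 0 were called for diet in either genotype. Their log2 fold changes were -0.40 to 0.29 in Gramd1c-/- mice and -0.18 to 0.26 in Gramd1c+/+ mice (smallest edgeR adjusted p = 0.376 and 0.740). Over all genes tested, 0.293% were called lower and 0.0333% higher in Gramd1c-/- mice, and 0.34% and 0.0999% in Gramd1c+/+ mice. With calls this rare, 0 of 11 does not set these neighbours apart from other genes.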

How the data were processed

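For each mouse the authors deposited a table of raw counts of reads (whole numbers) for Ensembl genes, with gene positions and exon lengths. Poly(A) RNA was sequenced, and the submitters' processing notes list the aligner STAR 2.5.2b and the build GRCm38, with the counting tool, annotation release and strand setting not given in the sources used here. A median library held 30159347 counts. Samples were grouped by genotype and diet as labelled. The 3 genes, the gene lists and the named genes (by place in the pathway, and the 3 most similar genes for each) were chosen with earlier results of these data known. Stard4, Ebp, Msmo1, Cyb5r3 and Idi1 were named after their values were seen, and some genes of the lists are counted but not reported singly here.

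The tests ran in R 4.3.3 on the counts, with edgeR 4.0.16 (TMM, filterByExpr with minimum count 10, 1 coefficient per group over 19 mice, quasi-likelihood test, Benjamini-Hochberg over 15016 genes), with a common biological coefficient of variation of 0.255. TPM was computed from counts and the deposited lengths, and ratios and correlations of log2 TPM were tested by exact permutation (100000 permutations for the correlations over 10 mice). P-values measure the spread between mice, and counting errors cover counting only. No libraries were identical. Alternatives were DESeq2 1.42.0, limma 3.58.1 on log2(TPM + 1), RLE scaling, no filter, a minimum count of 50, only the groups compared, the replicate block, a covariate for 2 ranges of the animal numbers in the file headers, 2 of the libraries that stood apart left out together, and each mouse left out. The 2 ranges (11 and 8 mice) were made here by splitting the sorted animal numbers at their largest gap. They were not taken from a recorded batch. Messenger RNA model lengths, and a pathway mean without Lbr and Acat2, were tried after the data were seen. Copies were sought with blastn 2.17.0 (at least 95% identity over 150 bases). The test was also run on counts simulated from its own fitted spread, for diet in Gramd1c+/+ mice only, with the result not reported here. Such counts hold no libraries that stand apart, so they do not show how the test handles those. Python 3.11.15 was used with scipy 1.17.1, numpy 2.4.6, matplotlib 3.10.9 and pandas 2.3.3. Sequences are from RefSeq.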

Additional observations from a re-analysis of the deposited data

How the results depend on the processing

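The diet changes of Fdft1, Sqle and Lss kept their direction and their call under every alternative run. Over all of them, with each mouse left out included, Fdft1 ranged from -1.92 to -1.63 in Gramd1c-/- mice and from -1.78 to -1.61 in Gramd1c+/+ mice, Sqle from -4.69 to -3.96 and -4.60 to -3.90, and Lss from -2.26 to -1.81 and -2.04 to -1.71. The other synthesis enzymes called lower numbered 15 to 17 of 18. No pairing of the mice by replicate number was detected (mean correlation of deviations -0.069 over 27 same-numbered pairs and 0.017 over 108 others). Single same-numbered pairs ranged from -0.35 to 0.29 and share mice, so these means cannot exclude a pairing. With the replicate block the diet changes of Fdft1, Sqle and Lss were -1.73, -4.50 and -2.14 in Gramd1c-/- and -1.71, -4.43 and -1.97 in Gramd1c+/+ mice, which changed no call of these genes. Depth limited Sqle most, at a counting error of up to 9.58% on high cholesterol.

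Genotype differences close to 0 changed sign without a call. Limma on log2(TPM + 1) gave 0.0025 for Sqle on low cholesterol. With 1 mouse left out, the genotype difference on high cholesterol kept its sign, at -0.30 to -0.10 for Fdft1, -0.23 to -0.070 for Sqle and -0.20 to -0.11 for Lss. On low cholesterol it was -0.26 to 0.014 for Fdft1, -0.18 to 0.12 for Sqle and -0.090 to 0.15 for Lss, and the interaction -0.22 to 0.077 for Fdft1, -0.28 to 0.021 for Sqle and -0.31 to -0.076 for Lss.

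Without Gramd1c+/+ mouse 2 on low and Gramd1c-/- mouse 5 on high cholesterol, the diet differences of the within-mouse ratios in Gramd1c-/- and Gramd1c+/+ mice were -2.81 and -2.71 for Sqle over Fdft1, -2.40 and -2.46 for Sqle over Lss and -2.47 and -2.37 for Sqle over the other enzymes, and 0.34 for Fdft1 over the other enzymes in Gramd1c+/+ mice. These no longer passed (adjusted p of 0.0635 to 0.0980). In Gramd1c-/- mice fewer mice raise the smallest p that can be reached, and the adjusted p in Gramd1c+/+ mice also depends on the other tests of the family. In the same setting Lss over the other enzymes gave -0.073 for diet in Gramd1c-/- mice, and the genotype on high cholesterol gave 0.031 for Sqle over Lss, -0.019 for Lss over Fdft1, -0.046 for Sqle over the other enzymes and -0.077 for Lss over the other enzymes. With log2(TPM + 1), Sqle over Lss gave 0.015 for genotype on high cholesterol and Lss over Fdft1 0.013 for diet in Gramd1c+/+ mice. The cause was not tested.

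With 1 mouse left out, diet in Gramd1c-/- mice gave -2.87 to -2.66 for Sqle over Fdft1, -2.51 to -2.37 for Sqle over Lss, -2.47 to -2.28 for Sqle over the other enzymes and -0.073 to 0.093 for Lss over the other enzymes. Diet in Gramd1c+/+ mice gave 0.31 to 0.37 for Fdft1 over the other enzymes. Genotype on high cholesterol gave -0.055 to 0.16 for Sqle over Fdft1, -0.091 to 0.068 for Sqle over Lss, -0.058 to 0.15 for Lss over Fdft1, and -0.12 to 0.088, -0.046 to 0.15 and -0.077 to 0.090 for Fdft1, Sqle and Lss over the other enzymes. Genotype on low cholesterol gave -0.0073 to 0.15 for Sqle over Fdft1, -0.16 to 0.040 for Sqle over Lss and -0.086 to 0.097 for Sqle over the other enzymes. The correlation of Fdft1 with Lss on high cholesterol was -0.090 without the 2 farthest mice and -0.037 with each group centred.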
